A study of Mus musculus with 4 samples.

Results

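The 9 genes described here govern whether a lymphocyte leaves a tissue or stays in it: S1pr1, S1pr5, Ccr7, Klf2, Cd69, Itgae, Itga1, Itgb1 and Cxcr4. They were chosen by gene symbol from the 32285 genes of the count tables, and each symbol matched 1 gene. Their unique molecular identifiers (UMIs, 1 per captured transcript) were summed per library over T, NK and B cell subsets defined by marker genes. MC38 cells, a mouse colorectal tumour line, had been injected under the skin of 8-week-old WT mice and Trim25 cKO mice, a conditional knockout that the series title places in T cells. CD45+ cells were sorted from the tumours and sequenced as single cells with 3' tags. There were 4 libraries, 2 from WT (WT-1 and WT-2) and 2 from cKO mice (cKO-1 and cKO-2). The labels name neither the Cre driver nor the animals behind each library, and all mice carried the same tumour line. The tissue is labelled as colon and the cell type as the tumour line, whereas the cells analysed here carried lymphocyte markers.

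Lymphocytes leave tissues by following sphingosine 1-phosphate, which is high in blood and lymph, through the receptors S1PR1 (T and B cells) and S1PR5 (mainly NK cells). The transcription factor KLF2 drives S1pr1, and CD69 binds the S1PR1 protein and removes it from the surface, so that cells with CD69 are held back. CCR7 guides cells towards lymph nodes, CXCR4 responds to CXCL12, and the integrin chains CD103 (Itgae), CD49a (Itga1) and CD29 (Itgb1) bind epithelial E-cadherin or collagen and other matrix proteins; CD69, CD103 and CD49a are standard markers of resident T cells.

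The libraries held 96751399 to 127449324 UMIs in 8533 to 12318 barcodes, with medians of 7796 to 10017 UMIs per kept cell. Any pair of libraries shared 42 to 59 barcodes. The 14 subsets described below held 9631 of 39906 kept cells (24.1%), each with at least 20 cells in every library. They were naive-like T cells, 2 groups of CD4 conventional T cells (with and without Ccr6), non-cycling regulatory T cells (Treg), gamma-delta T cells, T cells with Ly6c2 and Ly49 genes, and 3 groups of CD8 T cells (Gzmk positive, cycling and PD-1 positive). The others were 3 groups of NK cells (Gzmc low, Gzmc high and cycling), an innate group with little Eomes, and B cells. Names stand for clusters that resemble the cell type by their markers, and the 9 genes were kept out of the clustering. Trim25, the targeted gene, was measured first. In CD8 T cells it stood at 55.5 and 52.3 CPM (UMIs of the gene per 1000000 UMIs of the sum) in the WT libraries and at 43.2 and 39.1 CPM in the cKO libraries, and in B cells at 142 and 137 CPM against 172 and 160 CPM. In NK cells it stood at 47.9 and 48.4 CPM in WT against 41.5 and 46.2 CPM in cKO. Cells outside the lymphocyte classes held 228 and 229 CPM against 181 and 216 CPM. Treg and gamma-delta T cells also had less in both cKO libraries than in either WT library. CD4 conventional T cells overlapped, at 67.2 and 84.6 CPM against 69.3 and 61.4 CPM. Whether the 3' tags fall inside the deleted part is not given, so Trim25 does not check the labels.

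Promoters of 3 genes are shown because the patterns below turn on them: Klf2, which stands at the head of the egress programme, S1pr5, the egress receptor of NK cells, and Itga1, whose levels ran opposite to those of Klf2. Each is the 250 bases before the RefSeq start of the gene on GRCm38.p6, read 5' to 3' on the gene's strand. They lie at chr8:72318812-72319061 (plus strand), chr9:21248444-21248693 (minus strand) and chr13:115101965-115102214 (minus strand). Capitals mark CACCC, the core of the box that KLF factors bind, or its reverse complement, and in Klf2 also a match to the MEF2-type motif (CTA, any 4 bases, TAG).
Klf2: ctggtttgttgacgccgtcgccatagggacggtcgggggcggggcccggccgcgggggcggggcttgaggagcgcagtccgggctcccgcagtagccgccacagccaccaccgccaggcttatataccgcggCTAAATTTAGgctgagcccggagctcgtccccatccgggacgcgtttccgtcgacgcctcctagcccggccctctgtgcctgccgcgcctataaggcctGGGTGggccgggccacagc
S1pr5: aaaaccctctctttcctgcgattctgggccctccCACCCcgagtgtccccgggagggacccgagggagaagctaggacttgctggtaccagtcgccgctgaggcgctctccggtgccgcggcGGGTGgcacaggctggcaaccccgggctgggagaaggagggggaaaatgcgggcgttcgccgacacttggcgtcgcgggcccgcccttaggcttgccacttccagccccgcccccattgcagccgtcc
Itga1: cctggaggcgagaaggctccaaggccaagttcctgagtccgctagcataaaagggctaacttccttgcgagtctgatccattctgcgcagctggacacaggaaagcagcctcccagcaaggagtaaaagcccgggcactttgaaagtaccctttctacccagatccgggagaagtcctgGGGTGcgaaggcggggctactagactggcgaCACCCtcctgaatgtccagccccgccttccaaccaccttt
Of the 9 genes, 5 had an entry in the promoter table (Klf2, S1pr5, Itga1, Itgb1 and Cxcr4). On either strand, CACCC was found in all 5 of these promoters and in 52% of all 32851 promoters of this length. The MEF2-type motif was found in 1 of the 5, Klf2, and in 3.2% of all promoters. TCACACC, a half-site of T-box factors such as T-bet and Eomes, was found in 0 of the 5 and in 3.33% of all promoters. A match is a description of these letters, and no match says nothing of a factor.

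Among the egress genes, S1pr1 was highest in naive-like T cells, at 337 and 349 CPM in the WT and 269.9 and 311 CPM in the cKO libraries (mean 316 ± 34.8, SD, n = 4). All 4 libraries lay above those of every other subset. The CD4 groups without and with Ccr6 followed at 209 ± 19.4 and 180.0 ± 36.4 CPM, then B cells at 129 ± 31.1 and gamma-delta T cells at 115 ± 14.1 CPM, and neighbours in this order overlapped. Gzmk-positive CD8 T cells stood at 72.4 ± 6.7 CPM, whereas cycling CD8 T cells stood at 18.2 ± 8.8 and PD-1-positive CD8 T cells at 2.9 ± 2.6 CPM. Gzmc-high NK cells had 7, 5, 1 and 4 S1pr1 UMIs in the 4 libraries, or 0.798 ± 0.661 CPM. Cells outside the lymphocyte classes stood at 2.29 ± 0.388 CPM (1.93 to 2.83). Libraries of PD-1-positive CD8 T cells, cycling NK cells and the innate group with little Eomes overlapped that range, and Gzmc-high NK cells (0.183 to 1.73 CPM) lay below it.

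S1pr5, the NK cell counterpart, was sparse. Gzmc-low NK cells held 19, 16, 25 and 31 UMIs (8.1 ± 1.2 CPM), and this was the subset in which no library fell below 6.8 CPM. Gzmk-positive CD8 T cells held 3, 6, 2 and 9 UMIs, and T cells with Ly6c2 and Ly49 genes held 7, 1, 2 and 0. Gzmc-high NK cells held 0, 2, 1 and 4 UMIs from 4036274 to 8576533 UMIs per library. The CD4 group with Ccr6 and the gamma-delta T cells held none, with 3 counts corresponding to 2.75 to 8.88 and 4.22 to 15.2 CPM. Neighbouring subsets overlapped throughout the order of S1pr5. Cells outside the lymphocyte classes held 210, 300, 70 and 89 S1pr5 UMIs (2.44 ± 1.45 CPM) and all 4 libraries of Gzmc-low NK cells lay above them. The S1pr5 gene overlaps another annotated gene, Gm48303, on the opposite strand, and how the authors' counting treated such reads is not given.

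Klf2 and Ccr7 were both highest in B cells and naive-like T cells. Klf2 reached 675 ± 163 CPM in B cells and 643 ± 30.7 in naive-like T cells (SD, n = 4), which overlapped, and the lowest library of either lay above every other subset. It was lowest in cycling NK cells (20.8 ± 5.9 CPM), Gzmc-high NK cells (21.0 ± 7.4) and PD-1-positive CD8 T cells (35.2 ± 9.6). Gzmc-low NK cells held 161 ± 19.4 CPM, and all 4 of their libraries (140 to 186 CPM) lay above those of the 2 other NK groups. Ccr7 stood at 236 ± 55.2 CPM in B cells and 152 ± 27.5 in naive-like T cells and at no more than 29.2 CPM in any library of the other 12 subsets.

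The retention genes did not share 1 order. Cd69 was broad: its subset means ran from 348 ± 92.1 CPM in Gzmc-high NK cells to 939 ± 64.9 in the CD4 group with Ccr6, and every pair of neighbouring subsets overlapped. Cd69 was thus present, at 463 ± 119 CPM, in the naive-like T cells that carried the most S1pr1. Itgae was highest in gamma-delta T cells (274, 238, 278 and 231 CPM, mean 255 ± 24.3) and next in Treg (152, 206, 171 and 120 CPM, mean 162 ± 36.1). The libraries of these 2 subsets overlapped neither each other nor any other subset. Itgae stood at 6.2 ± 2.9 CPM in PD-1-positive CD8 T cells and at 28.0 ± 5.7 in Gzmk-positive CD8 T cells. Itgae overlaps Haspin, which lies on the opposite strand.

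Itga1 ran largely against S1pr1. It was highest in Gzmc-high NK cells (381, 445, 374 and 351 CPM, mean 388 ± 40.5), followed by cycling NK cells (257 ± 38.1), the innate group with little Eomes (241 ± 26.2), T cells with Ly6c2 and Ly49 genes (208 ± 47.1) and PD-1-positive CD8 T cells (173 ± 11.5). B cells, gamma-delta T cells, naive-like T cells and the CD4 group with Ccr6 each averaged 4.5 CPM or less. Pelo, Gm49395 and Gm10734 overlap Itga1, the first 2 on its strand. Itgb1, the partner chain of CD49a and of other integrins, was lowest in B cells (53.1 ± 7.9 CPM), naive-like T cells (79.1 ± 34.2) and Treg (122 ± 9.9), and highest in Gzmc-low NK cells (562 ± 52.5) and the CD4 group without Ccr6 (554 ± 98.2).

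Cxcr4 was highest in B cells, with 240, 195, 267 and 264 CPM, all above every other subset. It was lowest in Gzmc-high NK cells (5.5 ± 1.4 CPM), PD-1-positive CD8 T cells (7.8 ± 2.4) and cycling NK cells (9.9 ± 4.3), which were also the 3 subsets lowest in Klf2 and S1pr1. Gamma-delta T cells held 112 ± 18.6 CPM and the remaining T cell groups less. Cells outside the lymphocyte classes held 110 ± 15.9 CPM of Cxcr4, 317 ± 58.9 of Cd69 and 125 ± 22.9 of Klf2, so RNA of these 3 genes was also plentiful in the other cells of the tumours. The 9 genes were left out of the clustering, but the subsets were still separated by expression, so the differences between subsets are a description with no test.

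**Figure D1:**
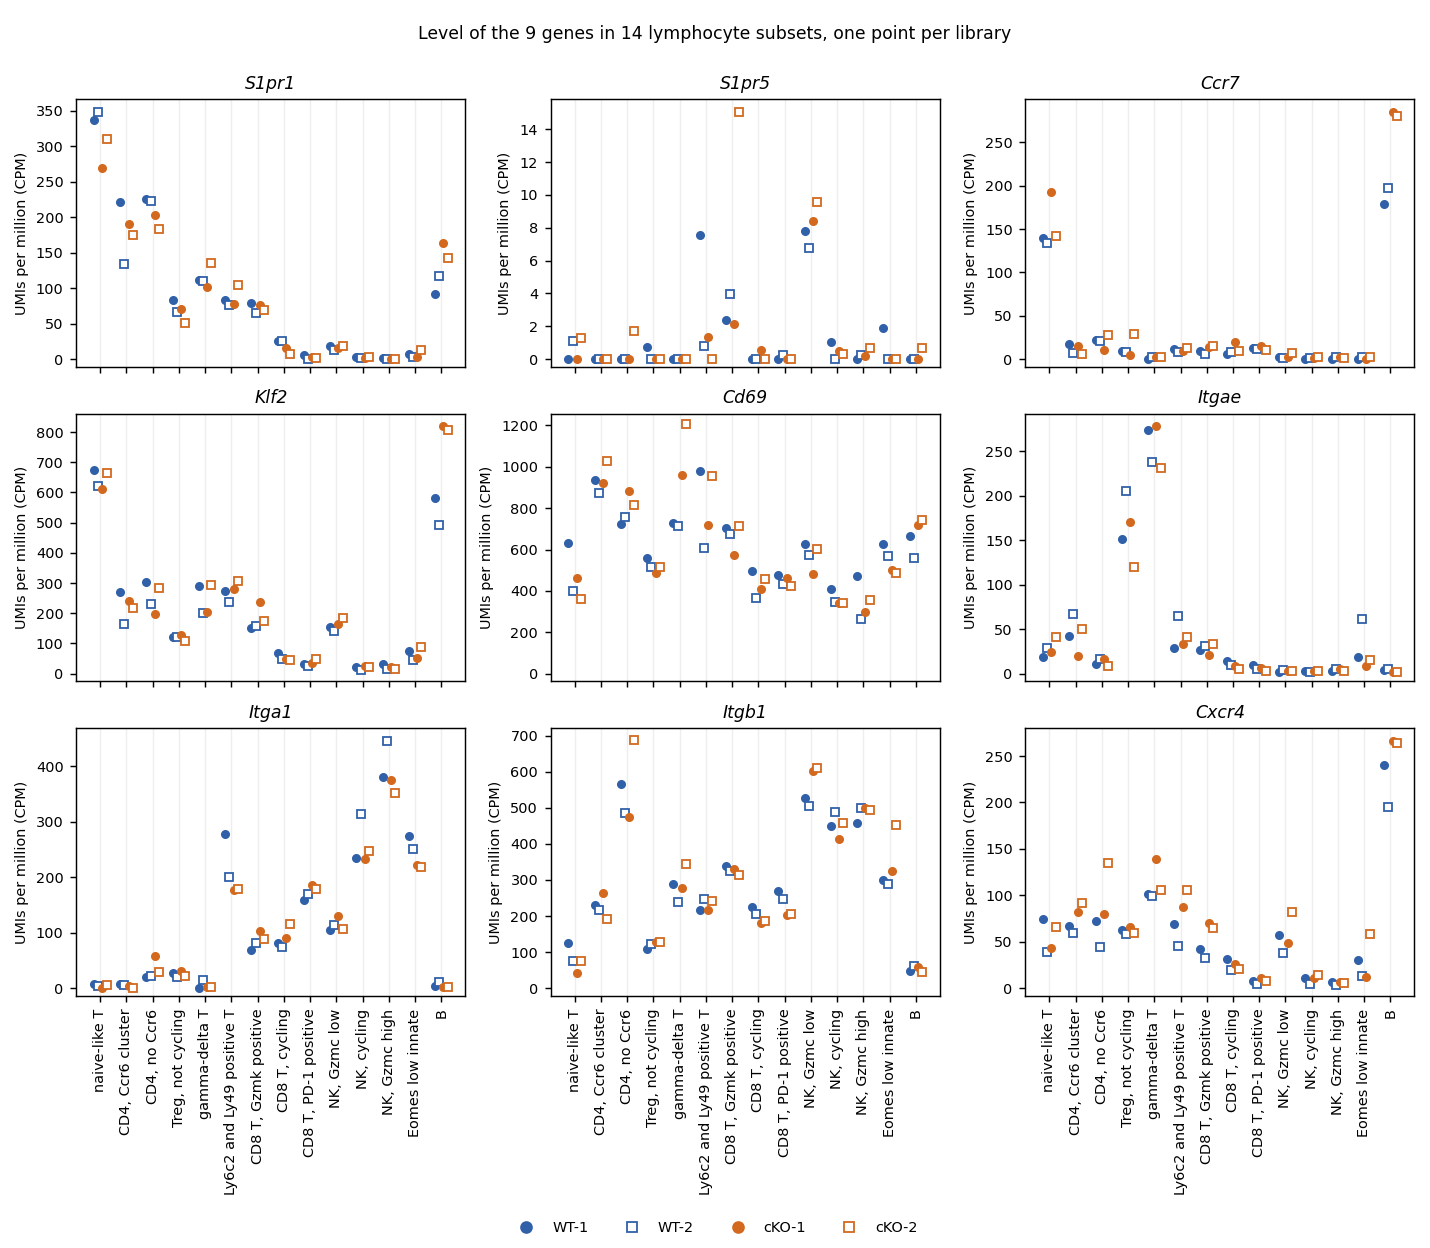
Level of each of the 9 genes (y axis, CPM, linear, a separate scale per gene) in the 14 lymphocyte subsets (x axis); each point is 1 library, blue for WT and orange for cKO, filled for replicate 1 and open for replicate 2. S1pr1, Klf2 and Ccr7 are highest at the naive-like T or B end, Itga1 is highest in Gzmc-high NK cells (351 to 445 CPM), and Itgae is highest in gamma-delta T cells (231 to 278 CPM).

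Across the 14 subset means, on log2(CPM + 1), S1pr1 ran with Klf2 (Pearson r = 0.93) and with Cxcr4 (r = 0.88) and against Itga1 (r = -0.81). Klf2 ran with Cxcr4 (r = 0.92) and against Itga1 (r = -0.77), and Ccr7 ran against Itgb1 (r = -0.81). The retention gene Cd69 ran with S1pr1 (r = 0.74), Klf2 (r = 0.70) and Cxcr4 (r = 0.80). Itgae ran with S1pr1 (r = 0.54) and against Itga1 (r = -0.45), whereas Itgb1 ran against S1pr1 (r = -0.48). These values describe 14 points that share 4 libraries. The subsets also differed in depth, from a median of 3217 UMIs per cell in B cells to 22330 in Gzmc-high NK cells and 24800 in cycling NK cells, and its part in these relations was not tested. Of 9920 genes that reached 10 CPM in a subset, the 3 most like S1pr1 were Stk38 (r = 0.97), Gm26740 (0.97) and Ssh2 (0.97). For Klf2 they were Arhgef18 (0.97), Ssh2 (0.97) and Abcg1 (0.96), so Ssh2 was among the 3 for both. For Ccr7 they were Erp27 (0.93), Dip2b (0.93) and Gpr35 (0.92). For Cxcr4 they were Nfkbid (0.94), Nfatc3 (0.94) and Prkce (0.93). For Cd69 they were Atp2b1 (0.94), Ankrd44 (0.93) and Arhgap26 (0.93). Itgae was most like Sfmbt2 (0.90), Spata6 (0.88) and Sytl1 (0.87), Itga1 most like Dapk2 (0.96), Rsl24d1 (0.94) and Klra5 (0.94), and Itgb1 most like Ociad1 (0.93), Exosc4 (0.89) and Id2 (0.89). S1pr5 did not reach 10 CPM in any subset mean and has no such list.

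**Figure D2:**
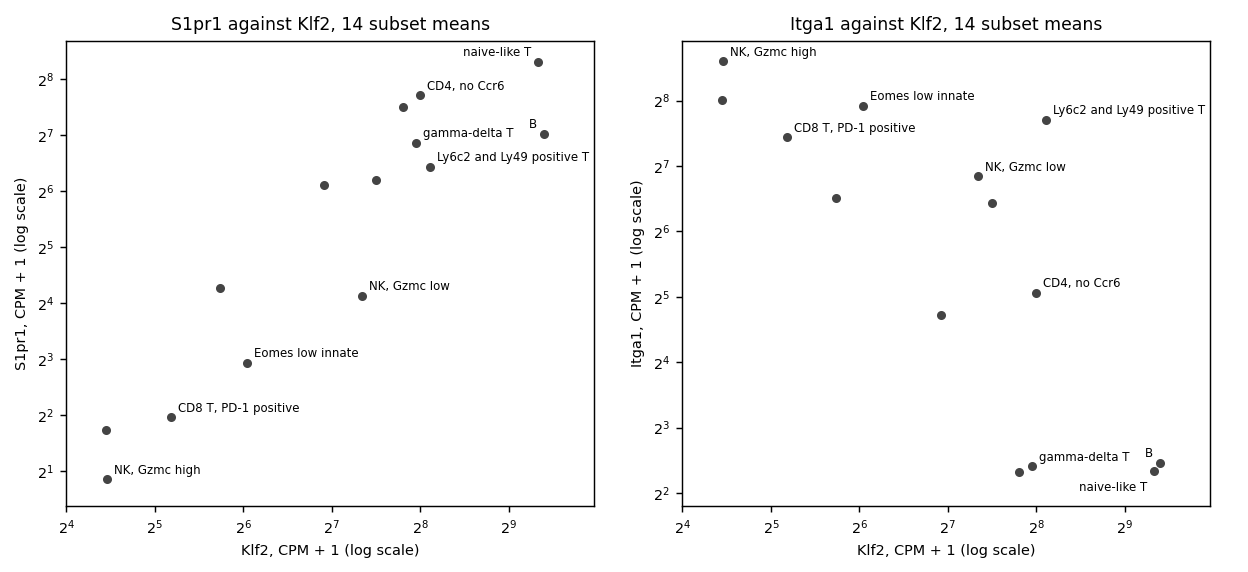
Mean S1pr1 level (left) and mean Itga1 level (right) of each of 14 subsets, on the y axis, against its mean Klf2 level on the x axis, as CPM plus 1 on log axes; each point is the mean of 4 libraries. S1pr1 is higher where Klf2 is higher, from Gzmc-high NK cells to naive-like T cells (r = 0.93), whereas Itga1 is lower (r = -0.77).

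Shares of cells with at least 1 UMI were compared at equal depth. Every cell was thinned to 2000 UMIs, and shallower cells were left out (265 of 1542 B cells, 46 of 562 naive-like T cells, 23 of 1014 PD-1-positive CD8 T cells and 34 of 1039 Gzmc-high NK cells). S1pr1 was seen in 45.0% of naive-like T cells, 21.6% of B cells, 11.8% of Gzmk-positive and 0.303% of PD-1-positive CD8 T cells, and in 0 of 1005 Gzmc-high NK cells, which allows a share of up to 0.299%. In macrophage-like cells, taken for comparison and with a median of 5502 UMIs, the share was 0.430%. The shares in PD-1-positive and Gzmc-high cells were thus no higher than in macrophage-like cells at this depth. Whether macrophage-like cells express S1pr1 was not tested, so the comparison cannot tell background from expression. With all UMIs the shares were 68.9%, 29.2%, 25.3%, 1.78% and 1.44% in the same order and 1.39% in macrophage-like cells, at medians of 4774, 3217, 6103, 12510 and 22330 UMIs. Itga1 was seen in 45.8% of Gzmc-high NK cells and 25.5% of PD-1-positive CD8 T cells against 0.705% of B cells after thinning, and in 86.9%, 60.0% and 1.49% with all UMIs. Itgae was seen in 34.8% of gamma-delta T cells and 22.9% of Treg against 0.548% of B cells after thinning, and in 51.7%, 37.1% and 0.778% with all UMIs. Klf2 was seen in 64.5% of naive-like T cells and 5.15% of PD-1-positive CD8 T cells, but also in 50.5% of neutrophil-like and 6.94% of macrophage-like cells. With all UMIs these shares were 83.8%, 21.1%, 53.9% and 17.8%. The PD-1-positive share is thus near that of macrophage-like cells. Since cells outside the lymphocyte classes also carried Klf2, this cannot tell background from expression.

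In single cells at this depth, S1pr1 was found more often in conventional CD4 T cells with a Klf2 UMI than in those without, in all 4 libraries: 38.3% against 23.8% in WT-1, 36.7% against 15.4% in WT-2, 38.1% against 20.2% in cKO-1 and 37.0% against 23.4% in cKO-2. Treg showed the same order in all 4 libraries (20% against 8.98%, 21.3% against 11.1%, 16% against 9.01% and 21.2% against 4.93%), from 25 to 47 Klf2-positive cells a library. CD8 T and B cells as whole classes did too, but Gzmk-positive CD8 T cells did not in WT-2 (6.82% against 8.24%). The order was reversed in NK cells of cKO-2 (0.758% against 2.44%). Gamma-delta T cells reversed it in WT-1 (10% against 18.2%) and, slightly, in cKO-2 (22.9% against 23.4%). Within naive-like T cells the order was mixed, with 49.4% against 45.8% in WT-1 and 44.6% against 51.8% in WT-2. A Cd69 UMI did not go with fewer S1pr1-positive cells in Treg, where the shares were 13.8% against 8.33%, 15.6% against 11.02%, 14.3% against 6.85% and 9.52% against 6.59%. In naive-like T cells S1pr1 was seen less often in cells with a Cd69 UMI in 3 libraries (40.6% against 56.2%, 41.5% against 51.1% and 37.9% against 43.1%) and more often in cKO-2 (52.2% against 36.6%). T cells with Ly6c2 and Ly49 genes went the same way in 3 libraries (14.7% against 21.6%, 13.8% against 21.2% and, in cKO-2, 10.9% against 25.6%) but not in cKO-1 (11.6% against 11.1%). Gzmc-low NK cells did so in the WT libraries (1.28% against 9.09% and 1.92% against 6.47%) and not in the cKO libraries (3.82% against 3.82% and 3.98% against 3.51%). The shares with a Cd69 UMI rest on few cells, 2 of 156 and 3 of 156 in WT and 6 of 157 and 8 of 201 in cKO. CD4 conventional T cells were mixed for Cd69, with 31.1% against 24.7% in WT-1 and 19.4% against 24.8% in WT-2. In CD8 T cells Itgae was found in 2.5%, 1.75%, 2.53% and 0% of the 80, 114, 79 and 102 Itga1-positive cells, and in 2.94%, 1.95%, 2.15% and 0.872% of the others. The count of 0 in 102 cells allows a share of up to 2.94%. In T cells with Ly6c2 and Ly49 genes, Itgae was found in 4.08%, 17.0%, 6.98% and 17.2% of Itga1-positive cells and in 2.60%, 4.67%, 2.83% and 5.88% of the others, higher in all 4 libraries. The counts were small, at 2 of 49, 9 of 53, 3 of 43 and 5 of 29 Itga1-positive cells. Among the others they were 2 of 77, 5 of 107, 3 of 106 and 6 of 102. These shares describe cells of 1 library each and carry no test.

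The genotype comparison asked whether any of the 9 genes differed between cKO and WT lymphocytes. None passed an adjusted p of 0.05 (edgeR quasi-likelihood F test, Benjamini-Hochberg over all genes of a class) in any of 6 classes, in 45 tests of members that passed the filter on low counts. Over all genes tested, the share called was 0.0174% for CD8 T, 0.186% for CD4 conventional T cells, 0.0644% in Treg, 0.0332% in gamma-delta T cells, 0% in NK cells and 0.459% in B cells. For NK cells, where edgeR called 0 genes, 665 had an unadjusted p under 0.05 and DESeq2 called 11. At an unadjusted p under 0.05, 13 of the 45 tests passed: 4 each in CD8 T and CD4 conventional T cells, 3 in B cells, 1 in NK cells, 1 in gamma-delta T cells and 0 in Treg. The share of all genes at that level was 8.13%, 7.73%, 11%, 5.54%, 6.91% and 5.51% in the same order. S1pr5 passed the filter in NK cells alone. With 2 libraries a group an exact permutation test cannot go below p = 0.333, and the labels do not tie the libraries to different mice. The p-values therefore measure only the spread between libraries, which may be technical.

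**Figure D3:**
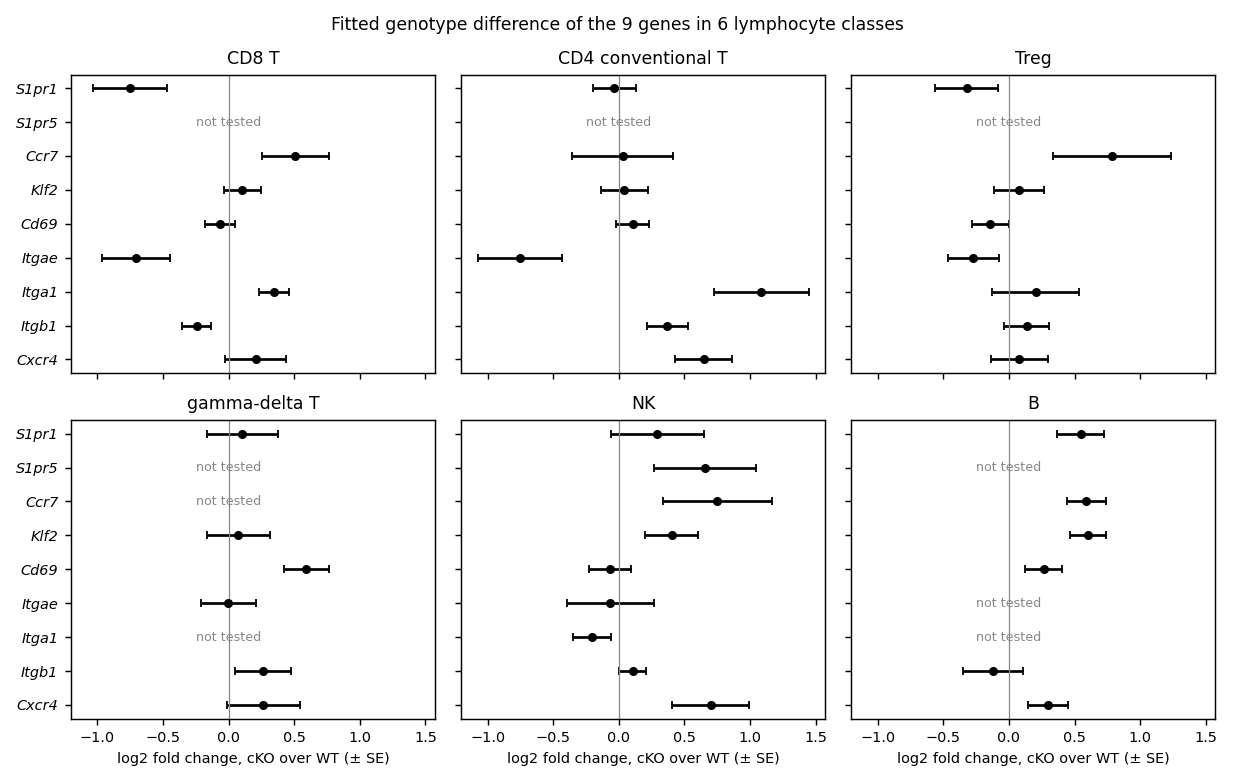
Fitted log2 fold change of cKO over WT (x axis, bars are ± 1 SE) for each of the 9 genes (y axis) in 6 lymphocyte classes, from edgeR on 2 WT and 2 cKO libraries; genes under the count filter are marked as not tested. No gene passed an adjusted p of 0.05; S1pr1 lies below 0 in CD8 T cells (-0.75) and above 0 in B cells (0.55).

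B cells held the smallest adjusted p-values, for 3 egress genes that were all higher in cKO. Klf2 stood at 583 and 494 CPM in WT and at 820 and 806 CPM in cKO. The groups did not overlap, and the fitted log2 difference was 0.60 ± 0.14 (SE; edgeR adjusted p = 0.0991). Ccr7 stood at 179 and 198 CPM against 285 and 281 CPM (0.59 ± 0.15, edgeR adjusted p = 0.123). S1pr1 stood at 92.1 and 117 CPM against 164 and 143 CPM (0.55 ± 0.18, edgeR adjusted p = 0.262). Cd69 and Cxcr4 were also above WT in both cKO libraries (0.27 ± 0.14 and 0.30 ± 0.15), whereas Itgb1 overlapped. Groups did not overlap for 5 of the 6 members tested in B cells, against 41.1% of all genes tested. Leaving out 1 library brought single genes past the threshold: Klf2 without WT-1 (0.69, edgeR adjusted p = 0.00846), and Ccr7 (0.70, 0.0173) and S1pr1 (0.77, 0.0478) without WT-2. With other libraries left out, S1pr1 fell short at 0.37 to 0.65, Klf2 at 0.52 to 0.62 and Ccr7 at 0.49 to 0.61 (edgeR adjusted p up to 0.781). DESeq2 called Klf2 (0.62, adjusted p = 0.00494), and edgeR without the filter on low counts called Klf2 (adjusted p = 0.00356) and Ccr7 (adjusted p = 0.0245).

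Markers of other cells moved with genotype in the same B cell sums. The 5 plasma cell markers (Jchain, Mzb1, Xbp1, Sdc1, Tnfrsf17) summed to 6416 and 16173 CPM in the WT libraries and to 3157 and 3077 CPM in the cKO libraries, and 0 of the 5 had a higher mean in cKO. The 7 macrophage markers summed to 1319 and 635 CPM against 442 and 596 CPM, again with 0 of 7 higher in cKO, and the 6 monocyte markers to 1833 and 2221 CPM against 1062 and 1363 CPM, with 0 of 6 higher. All 8 B cell markers had a higher mean in cKO, with sums of 8093 and 7837 CPM against 9054 and 9516 CPM, and no marker of these 4 lists was at 0. Of the 40 genes called in B cells, 38 were lower in cKO. The part of these markers in the differences of Klf2, Ccr7 and S1pr1 was not tested.

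**Figure D4:**
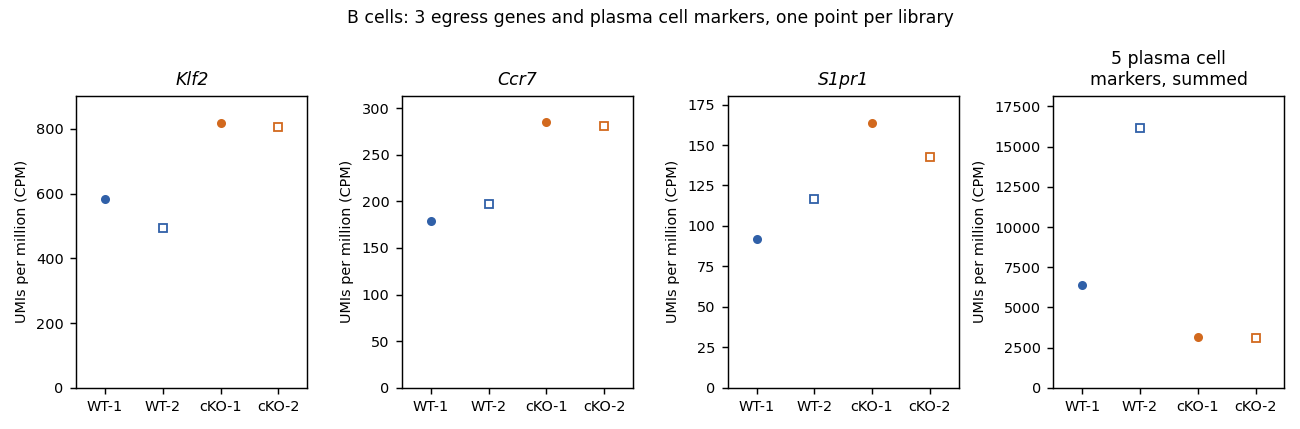
CPM in B cells (y axis, linear from 0) for Klf2, Ccr7, S1pr1 and the sum of 5 plasma cell markers, 1 point per library (x axis). The 3 egress genes are higher in both cKO libraries, and the plasma cell sum is highest in WT-2 (16173 CPM) and lowest in the cKO libraries (3157 and 3077 CPM).

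In CD8 T cells, S1pr1 stood at 27.3 and 21.2 CPM in WT and at 19.95 and 8.83 CPM in cKO (-0.75 ± 0.28, edgeR adjusted p = 0.487). The groups did not overlap, but cKO-1 lay close to WT-2 and cKO-2 far below. Without cKO-1 the difference was -1.41 and passed (edgeR adjusted p = 0.000136), and without cKO-2 it was -0.26 (edgeR adjusted p = 1.00). Without the filter on low counts it passed at the same size (edgeR adjusted p = 0.0190), and clustering at resolution 2 or with the 9 genes included gave -0.42 and -0.35. The make-up of the class also differed between libraries, and its part in the S1pr1 values was not tested. Gzmk-positive cells, the CD8 group with the most S1pr1, made up 30.4%, 34.3%, 29.9% and 15.6% of CD8 T cells in the 4 libraries in the order above, and PD-1-positive cells 45.9%, 41.4%, 50.3% and 63.8%. Within Gzmk-positive cells S1pr1 did not separate the genotypes, with 79.5 and 65.1 CPM against 76.3 and 68.6 CPM. Within cycling CD8 T cells it did, at 25.3 and 25.2 CPM against 15.5 and 6.9 CPM (-1.13 ± 0.34, edgeR adjusted p = 0.404), and without cKO-1 this passed (-1.82, edgeR adjusted p = 0.00675), whereas without cKO-2 it was -0.67 (edgeR adjusted p = 0.718).

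**Figure D5:**
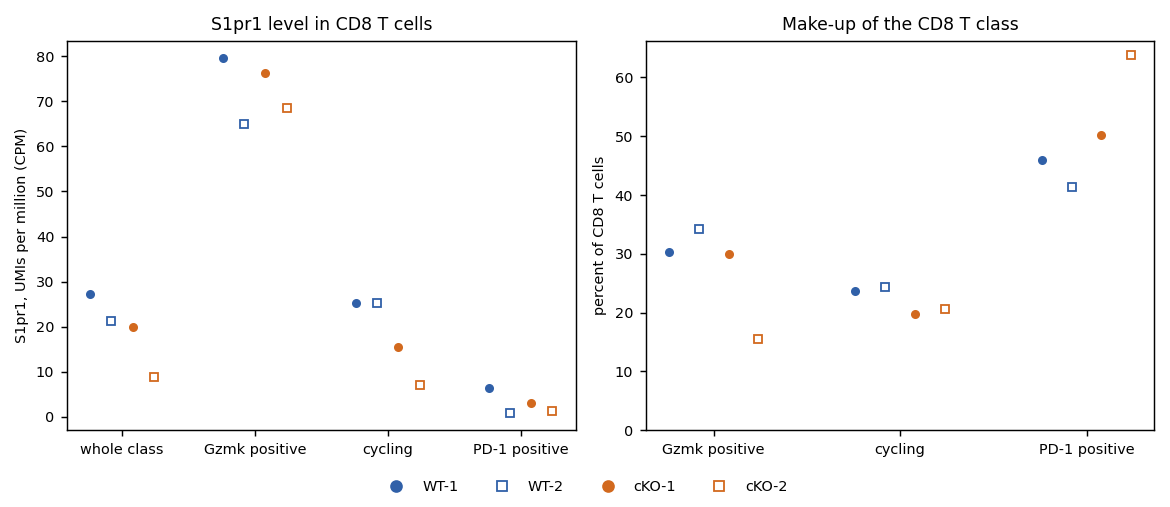
Left, S1pr1 in CPM (y axis) in all CD8 T cells and in 3 groups of them (x axis). Right, the percent of CD8 T cells in each group. Each point is 1 library; the library cKO-2 has the lowest S1pr1 in the whole class (8.8 CPM) and the smallest Gzmk-positive share (15.6%).

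The integrins of CD8 T cells differed in direction. Itgae stood at 14.7 and 11.9 CPM in WT and 10.0 and 6.1 CPM in cKO (-0.71 ± 0.26, edgeR adjusted p = 0.471), and passed without cKO-1 (-1.07, edgeR adjusted p = 0.0424), whereas without cKO-2 it was -0.39 (edgeR adjusted p = 0.968). Itga1 stood at 114 and 119 CPM against 139 and 152 CPM (0.35 ± 0.12, edgeR adjusted p = 0.376). Itgb1 stood at 268 and 246 CPM against 216 and 210 CPM (-0.24 ± 0.11, edgeR adjusted p = 0.610). Groups did not overlap for 5 of 8 members tested (these 3, S1pr1 and Ccr7), against 37.3% of all genes. Within PD-1-positive cells Itga1 was 159 and 170 CPM against 186 and 178 CPM, and Itgb1 270 and 247 CPM against 202 and 207 CPM, again without overlap. Itgae overlapped within Gzmk-positive (-0.17 ± 0.33) and PD-1-positive cells (-0.76 ± 0.48). Within cycling CD8 T cells Itgae was below WT in both cKO libraries (-0.70 ± 0.40). The part of the make-up of the class in the Itgae values was not tested. Klf2, Cd69 and Cxcr4 overlapped in the class as a whole.

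In CD4 conventional T cells Itga1 stood at 11.7 and 11.5 CPM in WT and at 30.6 and 18.0 CPM in cKO (1.084 ± 0.36, edgeR adjusted p = 0.389). Cxcr4 stood at 71.3 and 53.5 CPM against 80.0 and 115 CPM (0.65 ± 0.22, edgeR adjusted p = 0.389), and passed without cKO-1 (0.90, edgeR adjusted p = 0.0484), whereas without cKO-2 it was 0.38 (edgeR adjusted p = 0.892). Itgae stood at 30.9 and 49.1 CPM against 18.0 and 30.7 CPM (-0.75 ± 0.32) and Itgb1 at 351 and 314 CPM against 368 and 494 CPM (0.37 ± 0.16), with edgeR adjusted p = 0.565 and 0.556. Groups did not overlap for 5 of 8 members, against 37.3% of all genes. S1pr1 (224 and 169 CPM against 195 and 187 CPM), Klf2 and Ccr7 overlapped. The group without Ccr6, which holds more Itga1, Itgb1 and less Itgae than the group with Ccr6, made up 40.4% and 37.4% of these cells in WT and 49.4% and 61.6% in cKO. The part of this make-up in the integrin values was not tested. Within the group without Ccr6, Itga1 was 20.5 and 21.5 CPM against 58.1 and 29.4 CPM (1.03 ± 0.43, edgeR adjusted p = 0.792), and Itgb1 overlapped.

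In NK cells the member with the smallest unadjusted p was Cxcr4, at 21.9 and 9.5 CPM in WT and 19.5 and 28.0 CPM in cKO (0.70 ± 0.29, edgeR adjusted p = 0.846). The groups overlapped, and WT-2 was the lowest library: without WT-2 the difference was 0.18 (edgeR adjusted p = 0.944), and without WT-1 it was 1.35 and passed (edgeR adjusted p = 0.00346). It also passed without cKO-1 (0.93, edgeR adjusted p = 0.00130) and without the filter on low counts (edgeR adjusted p = 0.00453). Klf2 had the same shape, at 64.9 and 35.1 CPM against 63.3 and 63.3 CPM (0.40 ± 0.20), and passed without WT-1 alone (0.87, edgeR adjusted p = 0.00169), whereas without WT-2 it was 0.024 (edgeR adjusted p = 0.992). Gzmc-high cells, which hold little of either gene, made up 45.9% of NK cells in WT-2 and 33.0%, 35.6% and 33.7% in WT-1, cKO-1 and cKO-2. The part of this make-up in the Cxcr4 and Klf2 values was not tested. Within Gzmc-low NK cells Klf2 was 154 and 140 CPM against 164 and 186 CPM, without overlap, and Cxcr4 overlapped. S1pr5 in NK cells was 2.5 and 1.29 CPM against 2.57 and 2.98 CPM, from 21, 18, 27 and 36 UMIs (0.65 ± 0.39, edgeR adjusted p = 0.941). Groups did not overlap for 3 of 9 members (S1pr5, Ccr7 and Itgb1), against 34.9% of all genes.

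In the Treg class, which adds cycling Treg to the subset described above, none of 8 members tested reached an unadjusted p of 0.05, and groups did not overlap for 2 (Cd69 and Itgb1), against 34% of all genes. Itgae stood there at 140 and 164 CPM in WT and 154 and 97.5 CPM in cKO (-0.27 ± 0.20), and S1pr1 at 77.7 and 59.0 CPM against 68.0 and 41.5 CPM (-0.32 ± 0.24). In gamma-delta T cells, of which WT-1 and WT-2 held 36 and 71 cells, Cd69 stood at 726 and 712 CPM in WT and at 958 and 1208 CPM in cKO (0.59 ± 0.17, edgeR adjusted p = 0.397). In the same gamma-delta sums the 6 cycling markers added up to 284 and 208 CPM against 350 and 413 CPM, all 6 with a higher mean in cKO, and the part of these markers in the Cd69 values was not tested. Itgae there was 274 and 238 CPM against 278 and 231 CPM, and the genotypes overlapped. Groups did not overlap for 2 of 6 members in gamma-delta T cells (Cd69 and Cxcr4), against 36.2% of all genes.

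Macrophage markers moved with genotype in the T cell sums. The 7 markers added up to 804 and 665 CPM in WT and 964 and 934 CPM in cKO in CD8 T cells, and in the CD4 conventional class to 1060 and 918 CPM against 1377 and 1146 CPM. In Treg they stood at 948 and 1127 CPM against 1437 and 1313 CPM, and in gamma-delta T cells at 432 and 366 CPM against 719 and 941 CPM. All 7 had a higher mean in cKO in each of these 4 classes, and none was at 0. In Gzmk-positive CD8 T cells they stood at 1662 and 1588 CPM against 2164 and 2476 CPM (7 of 7 higher), and the 6 monocyte markers at 2062 and 2447 CPM against 2820 and 3186 CPM (4 of 6 higher). In NK cells the macrophage sums overlapped (283 and 241 CPM against 218 and 260 CPM, 3 of 7 higher). Since cells outside the lymphocyte classes carried Cxcr4 and Cd69, these sums stand beside the Cxcr4 and Cd69 differences of T cells, and their part in them was not tested.

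In the 12 subsets that are not whole classes, 0 of 85 member tests passed, where 0.0352% of all gene and subset pairs did (edgeR, Benjamini-Hochberg within a subset). An unadjusted p under 0.05 was found in 16 of the 85, where 6.39% of all pairs had one. Cxcr4 accounted for 5 of these 16, each with a positive difference: Gzmk-positive CD8 T cells (42.1 and 32.5 CPM against 69.8 and 65.3, 0.87 ± 0.25), T cells with Ly6c2 and Ly49 genes (69.0 and 45.0 against 87.9 and 105, 0.80 ± 0.21), the CD4 group without Ccr6, cycling NK cells and Gzmc-low NK cells. Without WT-1, Cxcr4 passed in the CD4 group without Ccr6 (1.24, edgeR adjusted p = 0.0350), in T cells with Ly6c2 and Ly49 genes (1.079, edgeR adjusted p = 0.00777) and in Gzmc-low NK cells (0.80, edgeR adjusted p = 0.00503). The lowest values with another library left out were 0.45, 0.51 and 0.058 in these 3 subsets, with edgeR adjusted p of 0.986, 0.613 and 0.998. Klf2 in PD-1-positive CD8 T cells gave 0.57 ± 0.21 with all libraries (edgeR adjusted p = 0.576). Its share of cells there was near that of macrophage-like cells above. The Klf2 difference was 0.80 without WT-1 and 0.33 without cKO-2. Also among the 16 were Itgb1 in naive-like T cells (-0.77 ± 0.27, groups overlapping) and in Gzmc-low NK cells (0.25 ± 0.10). Itga1 was among them in T cells with Ly6c2 and Ly49 genes (-0.40 ± 0.16) and in cycling CD8 T cells (0.44 ± 0.17). In cycling CD8 T cells Ccr7 gave 1.06 ± 0.43, and in Gzmk-positive CD8 T cells Klf2 gave 0.42 ± 0.18. Over all 14 subsets Cxcr4 was above WT in both cKO libraries in 8 and below in 0, whereas 16.5% of all gene and subset pairs had both cKO libraries above. The lowest of the 4 libraries was WT-2 in 13 of 14 subsets, where 26.9% of all gene and class pairs had their lowest value in WT-2. Cxcr4 was highest in WT-1 in 2 subsets, in cKO-1 in 6 and in cKO-2 in 6. The sum of 11 immediate early genes (Fos, Jun, Egr1, Hspa1a and others), which respond to handling of cells as well as to stimulation, was lowest in WT-2 in 14 of 14 subsets. The immediate early sum was highest in WT-1 in 12 of 14 subsets. In CD8 T cells this sum was 1877, 1170, 1683 and 1730 CPM, and in NK cells 1808, 998, 1492 and 1586 CPM. Klf2 was lowest in WT-2 in 9 of 14 subsets and Cd69 in 6. The part of the immediate early sum in the Cxcr4 and Klf2 values was not tested.

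Whether the genotype difference itself varied between classes was tested by an interaction term for 3 pairs of classes. Sums of 2 classes from the same library entered as separate samples, with the library kept as a term of the model. None of 25 member tests passed (edgeR), and DESeq2 was not run for these. An unadjusted p under 0.05 was found for 3 of 8 members between CD4 conventional and CD8 T cells, 3 of 9 between NK and CD8 T cells and 0 of 8 between Treg and CD4 conventional T cells, where 6.23%, 7.1% and 5.28% of all genes had one. Of all genes, 0.0806% passed for CD4 conventional against CD8 T cells, 0.0242% for NK against CD8 T cells and 0.0414% for Treg against CD4 conventional T cells. The smallest p was for Itgb1 between CD4 conventional and CD8 T cells, where the difference of the log2 effects was 0.63 ± 0.15 (edgeR adjusted p = 0.215). It passed without cKO-1 (0.85, edgeR adjusted p = 0.00628) and was 0.37 without cKO-2 (edgeR adjusted p = 0.704). Itga1 between NK and CD8 T cells gave -0.53 ± 0.13 (edgeR adjusted p = 0.263) and passed without WT-1 (-0.73) and without cKO-1 (-0.66), but not without WT-2 (-0.32, edgeR adjusted p = 0.903) or without cKO-2 (-0.40, edgeR adjusted p = 0.0936). S1pr1 gave 0.77 ± 0.26 between CD4 conventional and CD8 T cells (edgeR adjusted p = 0.527) and passed without cKO-1 (1.38, edgeR adjusted p = 0.00826), but was 0.25 without cKO-2 (edgeR adjusted p = 0.946). Between NK and CD8 T cells S1pr1 gave 1.13 with all libraries (edgeR adjusted p = 0.601). The value was 0.69 when WT-2 was left out and 0.43 when cKO-2 was (edgeR adjusted p = 1.00 and 0.868). It passed without WT-1 (1.63, edgeR adjusted p = 0.0303) or without cKO-1 (1.88, edgeR adjusted p = 2.48e-05). Without cKO-1, Cxcr4 (1.09, edgeR adjusted p = 0.00148) and Itgb1 (0.37, edgeR adjusted p = 0.0242) passed for the same pair of classes, whereas with all libraries they were 0.54 and 0.36 (edgeR adjusted p = 0.808 and 0.299). Without cKO-2 the Cxcr4 value was -0.050 (edgeR adjusted p = 0.994), and without WT-1 the Itgb1 value was 0.25 (edgeR adjusted p = 0.907).

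Other genes of the 2 programmes were read from a list of 19 egress and recirculation genes and a list of 21 residency and retention genes. No gene of either list passed in any of the 6 classes (edgeR). In the order CD8 T, CD4 conventional T, Treg, gamma-delta T, NK and B cells, 2 of 18, 2 of 16, 0 of 17, 2 of 13, 2 of 18 and 4 of 14 egress genes tested had an unadjusted p under 0.05. Of the residency genes, 5 of 21, 4 of 20, 4 of 19, 2 of 17, 6 of 20 and 3 of 15 did, where 8.13%, 7.73%, 5.51%, 6.91%, 5.54% and 11% of all genes did. DESeq2 called Rgs2 and Litaf in CD8 T cells among the listed genes named below. In CD8 T cells 18 egress genes were tested, with a median log2 difference of -0.13, and 21 residency genes, with a median of 0.15, beside 0.01 over all genes. In CD4 conventional T cells the medians were 0.01 and 0.11, in Treg 0.04 and 0.04, in gamma-delta T cells -0.06 and -0.02, in NK cells 0.01 and 0.07 and in B cells 0.09 and -0.20, beside medians of all genes between -0.00 and 0.00. Nearest to the threshold was Rgs2 in CD8 T cells, a brake on G protein signalling, at 484 and 361 CPM in WT and 728 and 773 CPM in cKO (0.86 ± 0.14, edgeR adjusted p = 0.0508). Rgs2 passed without WT-1, without cKO-1 and without cKO-2 (0.80 to 1.06) but not without WT-2 (0.67, edgeR adjusted p = 0.0517). Litaf followed in CD8 T cells, at 191 ± 12.4 CPM in WT against 272 ± 18.7 CPM in cKO (SD, n = 2 each) (0.54 ± 0.12, edgeR adjusted p = 0.156). On the egress side of CD8 T cells, Rasa3 stood at 54.5 and 42.7 CPM against 37.9 and 31.1 CPM (-0.47 ± 0.15) and Rasgrp2 at 12.03 and 11.86 CPM against 8.13 and 6.44 CPM (-0.70 ± 0.24), with edgeR adjusted p = 0.364 and 0.394.

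In CD4 conventional T cells the egress genes nearest the threshold were Eomes, a T-box factor, and Gpr183, an oxysterol receptor. Eomes was also a marker of NK cells here, as Tcf7 of the same list was of naive-like T cells. Eomes stood at 8.2 and 13.1 CPM against 2.7 and 1.1 (-2.43 ± 0.69, edgeR adjusted p = 0.259). In cKO-1 and cKO-2 3 counts correspond to 2.70 and 3.18 CPM, so Eomes there rests on 3 counts or fewer. Gpr183 stood at 535 and 613 CPM against 451 and 374 (-0.48 ± 0.15, edgeR adjusted p = 0.310). On the residency side the genes nearest the threshold were Rgs1, which dampens chemokine receptors (1429 and 1478 CPM against 1815 and 2143, 0.44 ± 0.12, edgeR adjusted p = 0.235), and the transcription factor Bhlhe40 (0.52 ± 0.18, edgeR adjusted p = 0.428). Gpr183 and Bhlhe40 passed without WT-1 (-0.58 and 0.86, edgeR adjusted p = 0.0263 and 0.000698), whereas their smallest differences with another library left out were -0.34 and 0.23 (edgeR adjusted p = 0.826 and 0.906). In Treg the genes nearest the threshold included Sidt1 (-0.37 ± 0.20), Rgs2 (0.51 ± 0.16) and Xcl1 (-1.62 ± 0.58). Rgs2 passed with the replicate number as a block (0.52, edgeR adjusted p = 0.0121), which nothing in the labels says is a pairing. The Rgs2 difference ran from 0.26 to 0.80 with 1 library left out. Xcl1 stood at 15.01, 233, 39.2 and 42.0 CPM, high in WT-2 alone. Without WT-2 the Xcl1 difference turned to 1.47, and the settings that brought Xcl1 past the threshold all kept WT-2. In NK cells they were Sidt1 (0.37 ± 0.12), Foxo1 (0.38 ± 0.14), Bhlhe40 (0.41 ± 0.14) and Itga4 (0.32 ± 0.11), with edgeR adjusted p between 0.727 and 0.797. Foxo1 and Bhlhe40 passed in NK cells without WT-1 (0.59 and 0.64, edgeR adjusted p = 0.0339 and 0.00526), and were 0.197 and 0.21 without WT-2 (edgeR adjusted p = 0.900 and 0.841).

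The ligands of CXCR4 and CCR7 were nearly absent from the sorted cells. Cxcl12 had 1, 1, 1 and 0 UMIs over all cells outside the lymphocyte classes, 1 in NK cells of cKO-1 and 1 in B cells of cKO-2. Ccl19 had 0, 0, 0 and 2 UMIs and Ccl21a 0, 1, 0 and 0 UMIs there, each summed over the 2 entries that carry its symbol. CD8 T cells of WT-1 held 2 Ccl21a UMIs. Stromal cells, a known source of these chemokines, are not CD45+ cells. Clusters resembling tumour cells or fibroblasts were still present, with 618, 196, 532 and 146 cells in the 4 libraries. They held 0 Cxcl12 UMIs in every library, and 0, 0, 0 and 1 Ccl19 UMIs. Clusters resembling migratory dendritic cells had 121, 171, 71 and 158 cells and also 0, 0, 0 and 1 Ccl19 UMIs. The part of the CD45 sort in these low counts was not tested.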

How the data were processed

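The deposited files hold UMI counts, whole numbers per gene and cell barcode that the authors did not normalize, with 1 matrix per library. Per the submitters' processing notes, Cell Ranger, STAR and mm10 were used; for versions, annotation and the treatment of intronic and antisense reads, the sources used here give nothing. Per the labels, kits were Chromium 3' v3.

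Kept cells had 300 genes and 500 UMIs or more and no more than 15% of UMIs from mitochondrial genes. Scrublet's automatic threshold marked 0 to 1 cells a library, so a cell scoring over 0.2, or a cluster whose median score was over 0.1, was set apart as mixed droplets. Cells were clustered with scanpy 1.11.5 and leidenalg 0.10.2 (2000 variable genes without the 9 members, 30 components, 15 neighbours, resolution 1), and T and NK cells were clustered again alone. Clusters were named from marker genes with thresholds set after the clusters were seen. Unnormalized UMIs were then added up within each library and class. CPM is per 1000000 summed UMIs. Tests used edgeR 4.0.16 in R 4.3.3 (TMM, filterByExpr, quasi-likelihood F test, two-sided, threshold 0.05), and were tested on simulated data first. DESeq2 1.42.0 was an alternative. SE is the log2 difference over the root of F. Promoters came from RefSeq (GRCm38.p6) and overlapping genes from GENCODE vM21 on GRCm38; no protein sequences were used. Intervals and floors (3 counts) cover counting error only.

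The members and lists were chosen with earlier results of these data known. Named were the members in every class, the 2 genes of each list with the smallest p in CD8 T, CD4 conventional T, Treg and NK cells (more where they passed), 3 chemokine ligands and the 3 genes most like each member. The values of 1 listed gene in Treg are not reported here. Members in a subset were named where the unadjusted p was under 0.05 or where a class result turned on them. Replicate numbers did not pair the libraries: deviations of same-numbered libraries correlated at -0.00878 to 0.0953 over the 6 classes.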

Additional observations from a re-analysis of the deposited data

How the results depend on the processing

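Numbers of genes called are given in the order CD8 T, CD4 conventional T, Treg, gamma-delta T, NK and B cells, and were 2, 16, 6, 2, 0 and 40 with the settings reported. They were 9, 17, 1, 2, 0 and 40 with RLE size factors, 27, 13, 3, 0, 11 and 46 with DESeq2, 230, 71, 33, 31, 134 and 298 with no filter on low counts, 8, 26, 6, 2, 0 and 70 with mixed droplets kept, 13, 25, 9, 1, 0 and 2 at Leiden resolution 2, and 2, 28, 9, 0, 0 and 19 with the members among the clustering genes. Leaving out 1 library gave 24 to 198, 37 to 100, 14 to 49, 5 to 48, 4 to 207 and 102 to 304. The interaction tests called 9, 3 and 4 genes, and 16 to 76, 1 to 307 and 16 to 43 with 1 library left out. The cause of these shifts was not tested. With the replicate number as a block, which nothing in the labels says is a pairing, 63, 5, 46, 23, 6 and 87 genes were called and 0 members in every class.

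Members called went from 0 to 1 in CD8 T cells (S1pr1, -0.75), to 1 in NK cells (Cxcr4, 0.70) and to 2 in B cells (Klf2, 0.60, and Ccr7, 0.59) with no filter, and to 1 in B cells with DESeq2. Leaving out 1 library gave 0 to 2 in CD8 T, NK and B cells, 0 to 1 in CD4 conventional T cells, 0 to 4 over the 12 subsets, and 0 to 2 and 0 to 4 for the interactions of CD4 conventional and of NK with CD8 T cells. No other alternative called a member, and Treg and gamma-delta T cells had none under any setting run. Rgs2 in CD8 T cells passed under 6 of 7 alternatives that keep all libraries (not with the members among the clustering genes).

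Signs turned for the following differences, among them Ccr7 and Xcl1 in Treg, which were 0.79 and -1.62 with the settings reported. S1pr1 in CD4 conventional T cells was 0.048 at resolution 2 and 0.067 with the members clustered, and Klf2 in Treg -0.00071, Itgae in NK 0.15 and Itgb1 in B 0.057 with the members clustered. Itgae in NK was 0.083 at resolution 2, and Itgae in gamma-delta T cells 0.0062 with DESeq2 and 0.051 with no filter. With 1 library left out, ranges crossing 0 were, in CD8 T cells, Cd69 -0.16 to 0.033, Cxcr4 -0.13 to 0.49 and Klf2 -0.078 to 0.27. In CD4 conventional T cells they were Ccr7 -0.28 to 0.32, Klf2 -0.20 to 0.33 and S1pr1 -0.22 to 0.16. In Treg they were Ccr7 -0.23 to 1.296, Cxcr4 -0.089 to 0.26, Itga1 -0.11 to 0.58, Itgae -0.63 to 0.043, Klf2 -0.18 to 0.31, S1pr1 -0.70 to 0.022 and Xcl1 -2.51 to 1.47. In gamma-delta T cells they were Itgae -0.14 to 0.15, Klf2 -0.22 to 0.32 and S1pr1 -0.10 to 0.28. In NK cells they were Cd69 -0.31 to 0.24, Itga1 -0.41 to 0.065, Itgae -0.38 to 0.51 and S1pr1 -0.28 to 1.01, and in B cells Itgb1 -0.32 to 0.10. Depth limits S1pr5 outside NK cells and S1pr1 in Gzmc-high NK cells, where a few UMIs a library decide the level.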
